A study of Mus musculus with 7 samples.

Results

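The binding of the retinoic acid receptors RARα and RARβ and of their dimer partner, the retinoid X receptor RXRα, was examined around 8 genes of the hepatic fasting response, namely Fgf21, Klb, Fgfr4, Bdh1, Pdk4, Angptl4, Vnn1 and Fabp1. The genes were taken from a list, and all 8 were found among 21532 protein-coding genes with a known strand. Each gene was given every peak whose midpoint lay in its span or within 50 kb of it, which gave 395 of the 245004 peaks in 6 lists. Chromatin immunoprecipitation followed by sequencing (ChIP-seq) had been done on livers of male wild type C57BL/6 mice aged 3 months. They received a normal diet (control) or a diet with retinoic acid (RA), the ligand of the RARs, for 1 day as the labels give it, whereas a longer RA feeding is described in the methods of the study. Each receptor and diet had 1 library, and 1 input of total chromatin was labelled for both diets; the number of mice behind a library is not given in the sources used here. No value below therefore has a replicate check, and the differences describe these libraries.

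Fasting moves the liver from burning glucose to burning fatty acids and making ketone bodies. Much of this program is switched on by the fatty acid receptor PPARα, which binds DNA as a heterodimer with RXRα at direct repeats of the half-site AGGTCA. Fgf21 encodes a hormone released by the fasted liver, and Klb encodes β-Klotho, the co-receptor that FGF21 needs. Fgfr4 encodes the main FGF receptor of hepatocytes. Bdh1 makes β-hydroxybutyrate in mitochondria, Pdk4 inhibits pyruvate dehydrogenase, and Angptl4 is a secreted inhibitor of lipoprotein lipase. Vnn1 encodes a pantetheinase and Fabp1 the liver fatty acid-binding protein, and both are classic PPARα targets.

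The tissue label was checked with markers of liver cells, by peaks no more than 10 kb from a gene start. RXRα was called at all 5 hepatocyte markers (Alb, Ttr, Apoa1, Apob and Tat) under both diets, RARα at 2 under control and 4 under RA, and RARβ at 3 and 4. Of 8 markers of stellate, Kupffer, endothelial and bile duct cells, RXRα was called at 0 and 1, RARα at 3 and 3, and RARβ at 0 and 0. Among all genes the shares were 61.3% and 61.7% for RXRα, 61.9% and 63.3% for RARα, and 44.1% and 54.7% for RARβ. The RARα counts under control did not set the hepatocyte markers apart from the others. Peak scores are those of the peak caller and are comparable only within a list. They are given here as score percentiles, the percentage of the peaks of the same list with a lower score.

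RXRα peaks were the most numerous around the 8 genes, and RARβ peaks were few under control and more numerous under RA. The windows held 49 RARα peaks under control and 66 under RA, 27 and 59 RARβ peaks, and 99 and 95 RXRα peaks. The median per gene was 6 and 8.5 for RARα, 4 and 7 for RARβ and 12 and 11.5 for RXRα. Over all protein-coding genes the medians were 4 and 4, 1 and 3, and 5 and 5. Every gene had a peak in every list except Fabp1, which had none in the RARβ control list. A peak in the window was common in the genome, with 83.6% and 84.8% of genes for RARα, 70.2% and 77.8% for RARβ and 83.7% and 84.3% for RXRα. RARβ peaks were more numerous under RA at 7 of the 8 genes, against 56.7% of all genes, and Fgf21 was the exception with 7 and 6, a decrease seen at 6.87%. RARα peaks were more numerous under RA at 7 genes, against 47.9%, and equal at Fgfr4 with 6 and 6; a decrease was seen at 13.0% of all genes and at none of the 8. RXRα peaks were fewer under RA at 6 genes, against 33.1%, and more numerous at Fgf21 and Bdh1, against 29.5%.

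The RARβ list under RA was the longer one, and its excess in these windows was small in lists of equal length. When it was cut to the 14968 highest-scoring peaks, the length of the RARβ control list, it had 29 peaks in the windows against 27. With the same cut Fabp1 had 4 RARβ peaks against 0, and Fgf21 had 5 against 7. The RARα list under RA, cut to 35521 peaks, had 56 against 49. At Fabp1 it had 11 against 6. At these equal lengths, an alternative chosen after seeing the data, RARβ peaks were more numerous under RA at Klb, Angptl4 and Fabp1, 3 genes, against 20.8% of all genes. They were fewer at Fgf21, Bdh1 and Pdk4, against 29.4%, and equal at Fgfr4 and Vnn1. RARα peaks were then more numerous under RA at Fgf21, Bdh1, Pdk4 and Fabp1, 4 genes, against 25.2%, fewer at Klb and Vnn1, against 29.2%, and equal at Fgfr4 and Angptl4.

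**Figure D1:**
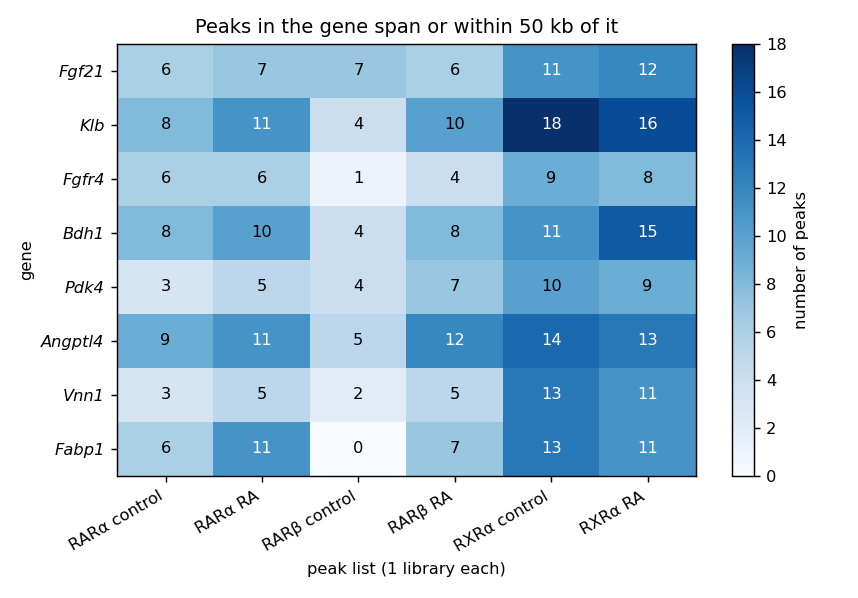
Number of peaks in the span of each gene or within 50 kb of it (rows), in each of the 6 peak lists (columns, 1 library each); darker blue marks more peaks. The RXRα columns hold 8 to 18 peaks per gene, and the RARβ column goes from 0 to 7 at Fabp1 between the diets.

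Near the gene starts, RXRα had a peak at all 8 genes under both diets, against 61.3% and 61.7% of all protein-coding genes within 10 kb. RARα had one at 6 genes under control and at 8 under RA, against 61.9% and 63.3%. RARβ had one at 4 genes under control and at 8 under RA, against 44.1% and 54.7%. With RARβ lists of equal length it had one at 4 and 4, the genes under RA being Fgf21, Klb, Pdk4 and Angptl4, against 44.1% and 40.7%. With RARα lists of equal length the counts were again 6 and 8, against 61.9% and 60.1%. Vnn1 and Fabp1 were the genes with a RARα peak under RA only, a pattern of 3.88% of all genes. Klb, Fgfr4, Angptl4 and Fabp1 had a RARβ peak under RA only, a pattern of 13.1% of all genes. For RXRα no gene had that pattern, against 4.13%. Fgf21, Bdh1 and Pdk4 had a peak within 10 kb in all 6 lists, against 38.2%. Within 1 kb of the start RARα had a peak at 4 genes under control and 7 under RA, against 45.9% and 46.2% of all genes. RARβ had one at 1 and 6, against 33.0% and 40.3%, and RXRα at 7 and 6, against 40.1% and 41.9%. Of these RARβ peaks under RA, that of Pdk4 ranked 1069th, that of Fgfr4 15016th and the others lower. All but that of Pdk4 thus lay past the 14968 peaks of the RARβ control list. The RARα peaks under RA of Klb and Vnn1 ranked 38464th and 38641st, past the 35521 peaks of the RARα control list. Pdk4 alone had one in all 6 lists at this distance, against 24.7%.

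The best RARα peak within 10 kb stood higher in its list under RA at each of the 6 genes that had one under both diets, against 51.9% of all such genes. The best RARβ peak stood at a higher percentile at 3 of the 4 genes with one under both diets, against 64.2%. Percentiles depend on list length, and the RARβ list under RA held 29467 peaks against 14968 under control. By rank from the top, the best RARβ peak went from 6442nd to 1069th at Pdk4. It went down from 3600th to 7572nd at Fgf21, 11376th to 15778th at Bdh1 and 11049th to 15521st at Vnn1. At Fgf21 and Bdh1 the best RARβ peaks of the diets lay in different regions. In the regions of their control peaks, the RARβ peaks under RA ranked 11394th and 20084th. At Bdh1 the RARα percentile was 11.0 under control and 81.3 under RA, and at Klb 11.1 and 62.9, and at both genes the best peaks of the diets lay in different regions. At Pdk4 it was 46.7 and 83.6, and at Fgf21 58.1 and 78.4, there for peaks nearest to the start of Izumo1. At Fgfr4 it was 84.7 and 94.5, and at Angptl4 94.4 and 98.3. For RXRα the best peak stood higher under RA at 2 of 8 genes, Fgf21 and Pdk4, against 52.6%, and all 16 values lay between 76.5 and 99.2. These values are of the best peak alone, and weaker RXRα peaks also lay within 10 kb. At Fgf21, Bdh1 and Angptl4 the best RXRα peaks of the diets lay in different regions. At Fgf21 they lay at -8.147 kb under control, nearest to the start of Izumo1, and at 5.765 kb under RA. In the Izumo1 region RXRα had 76.5 and 66.5.

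**Figure D2:**
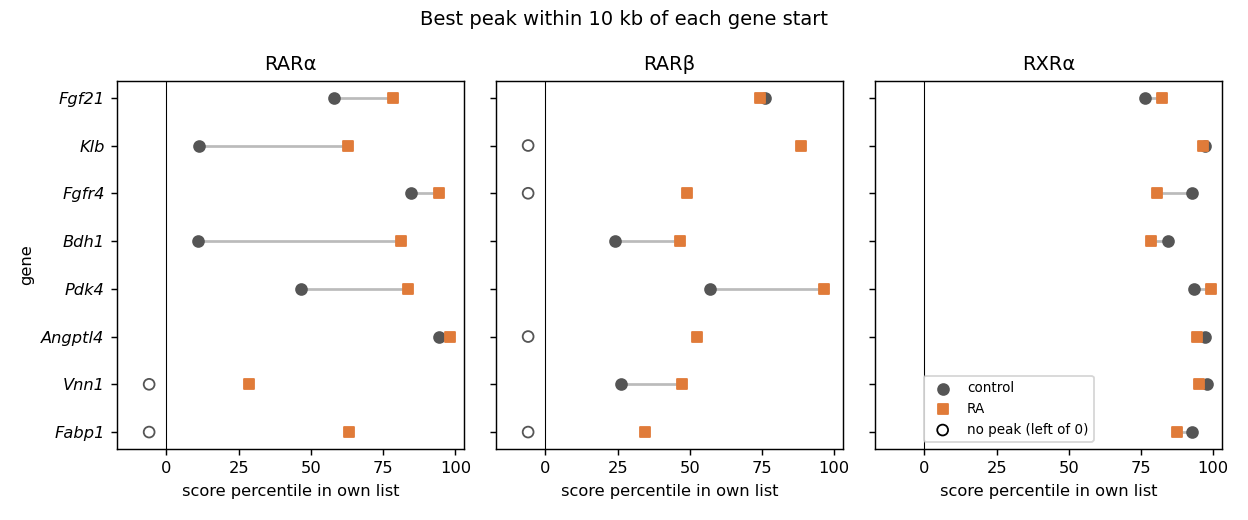
Score percentile (x axis, 0 to 100 within the peak's own list) of the highest-scoring peak within 10 kb of the start of each gene, under control (grey circles) and RA (orange squares), for RARα, RARβ and RXRα; open symbols left of 0 mark genes without a peak. RXRα values lie at 76.5 or higher, and open symbols occur for RARα and RARβ under control only.

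Fgf21 (chromosome 7, 45613890 to 45615490, minus strand) lies in a dense stretch of genes, and the peaks nearest to it were largely RXRα peaks without a RAR. Distances are given from the gene start along the strand, so that negative values lie upstream. At the start itself the RXRα control list had a peak at 12 bp and percentile 24.5, and the other 5 lists had none within 1 kb. The RXRα list under RA had a peak at -1.07 kb with percentile 11.2. Both peaks at the start were thus in the weaker part of their lists. Past the 3′ end of the gene, RXRα had 4 regions under both diets, at 4.42, 5.76, 11.6 and 17.9 kb. Its percentiles there were 63.8 and 75.7, 74.6 and 82.1, 83.9 and 79.9, and 87.1 and 80.9 under control and RA. RARα and RARβ were called at the first of these under RA only, with percentiles of 24.3 and 74.3. At the next pair of regions neither RAR was called in any list, and at the last RARβ was called under control with percentile 16.1. The 5 regions called in all 6 lists lay at -13.4, -8.19, 26.1, 41.0 and 47.7 kb, and each was nearer to the start of Rasip1, Izumo1 or Bcat2 than to Fgf21.

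The 250 bases before the RefSeq start of Fgf21 (chr7:45615491-45615740, GRCm38, minus strand) are shown because only 1 of the 6 lists had a peak over them. They hold none of 4 receptor half-sites on either strand. These were the consensus AGGTCA with the variant GGGTCA, then the form AGTTCA as well as its variant GGTTCA. At least 1 of them is held by 38.6% of 32851 promoters of this length.
Fgf21: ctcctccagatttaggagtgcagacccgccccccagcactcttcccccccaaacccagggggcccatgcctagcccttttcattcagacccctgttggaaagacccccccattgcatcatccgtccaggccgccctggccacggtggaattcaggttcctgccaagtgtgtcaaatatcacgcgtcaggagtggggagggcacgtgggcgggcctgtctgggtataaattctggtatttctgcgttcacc

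Klb (chromosome 5, 65348411 to 65386957, plus strand), the gene of the FGF21 co-receptor, had 67 peaks in 22 regions. Its strongest RXRα sites lay away from the start. At the start RARα had percentiles of 9.21 and 13.1 and RXRα 56.4 and 15.0 under control and RA, and RARβ was not called. At -7.78 kb RXRα had 97.2 and 96.4, and both RARs were called under RA only, RARα with 62.9 and RARβ with 88.6. This region is nearer to the start of Rfc1. Inside the gene, RXRα had 83.0 and 87.5 at 8.64 kb, where RARβ was called under RA only with 51.1. At 19.7 kb inside the gene RXRα had 90.2 and 80.2 and RARβ 42.4 and 64.1, and RARα had 4.23 under RA. The 2 regions called in all 6 lists, at 43.0 and 87.0 kb, were nearest to the starts of Rpl9 and Ugdh.

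Fgfr4 (chromosome 13, 55152818 to 55168759, plus strand) had its peaks near the start in 1 region, at 0.157 kb, and no other peak in its span. RARα had 84.7 and 94.5 there and RXRα 92.7 and 80.5. RARβ had no peak there under control and 49.0 under RA. The RARβ control list had 1 peak in the whole window, at -47.5 kb and nearest to the start of Zfp346. RXRα regions called under both diets without a RAR lay at -35.3, 30.9 and 34.5 kb, with percentiles of at most 57.1.

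Bdh1 (chromosome 16, 31422297 to 31458901, plus strand), the ketone body gene, was the nearest gene start for all 19 regions of its window. RAR peaks that were weak or absent under control stood at higher percentiles under RA at several of them. In RARβ lists of equal length the window had 4 RARβ peaks under control and 3 under RA. At the start region, centred at 0.248 kb, RARα had 10.9 under control and 81.3 under RA, and RARβ had no peak under control and 46.5 under RA. RXRα had 76.4 and 78.3. At -9.85 kb RARα had 4.67 and 62.8, RARβ 6.83 and 40.8, and RXRα 84.2 and 71.6. The strongest RXRα site of the window lay at -22.9 kb, with 98.8 and 98.1. RARβ had 32.8 and 76.9 at that site, and RARα was called under RA only, with 65.4. By rank in its lists, the RARβ peak went from 10057th to 6807th there and from 13931st to 17444th at -9.85 kb. Of the 19 regions, 8 were called in 1 list, and 4 of these lay inside the gene in an RXRα list. A second RefSeq start of Bdh1 within the gene had no peak of any list over its 250 bases.

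The 250 bases before the outer start of Bdh1 (chr16:31422047-31422296, GRCm38, plus strand) had a peak of every list but RARβ control over them. Capitals mark its 2 half-sites, which lie apart from each other.
Bdh1: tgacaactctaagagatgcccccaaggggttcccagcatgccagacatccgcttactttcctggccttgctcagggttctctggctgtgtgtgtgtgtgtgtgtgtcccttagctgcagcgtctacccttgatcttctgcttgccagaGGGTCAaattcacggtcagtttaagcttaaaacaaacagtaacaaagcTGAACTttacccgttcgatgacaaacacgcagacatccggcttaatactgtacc

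Pdk4 (chromosome 6, 5483351 to 5496278, minus strand) was likewise the nearest start for all 10 regions of its window, and RXRα held 9 of them under both diets. The start was called in all 6 lists, with midpoints between -333 and -46 bp. RARα had 46.7 under control and 83.6 under RA, RARβ 57.0 and 96.4, and RXRα 90.1 and 87.0. The peak of RARβ under RA ranked 1069th of 29467, and the control peak 6442nd of 14968. A second RXRα site lay at -2.67 kb, with 93.3 and 99.2, and ranked 451st of 59624 under RA. RARβ was called there under control only, with 42.4, and RARα in neither list. At -13.4 kb RXRα had 94.6 and 92.6, RARα 37.4 under control only and RARβ 46.4 under RA only. Past the 3′ end, RXRα regions at 22.0, 25.2 and 46.2 kb had percentiles between 78.1 and 95.0. At the first of these RARα had 0.422 and 29.4, and RARβ was called under RA only with 78.3.

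The promoter of Pdk4 (chr6:5496279-5496528, GRCm38, minus strand) is shown because it had a peak of all 6 lists over it. Its half-site AGTTCA, in capitals, lies 116 to 111 bases before the start.
Pdk4: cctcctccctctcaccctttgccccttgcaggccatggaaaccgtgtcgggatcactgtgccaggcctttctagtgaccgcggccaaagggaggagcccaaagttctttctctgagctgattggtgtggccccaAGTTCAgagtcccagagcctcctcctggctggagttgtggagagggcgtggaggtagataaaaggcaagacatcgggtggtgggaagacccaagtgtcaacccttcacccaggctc

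Angptl4 (chromosome 17, 33774900 to 33781575, minus strand) had strong RARα and RXRα peaks under both diets in 1 broad region over the start and the body of the gene, from 33778626 to 33782114. RARα had 94.4 and 98.3 there, RXRα 97.0 and 91.8, and RARβ was called under RA only, with 21.7. The midpoints of the RARα peaks lay at 1193 and 458 bp from the start and those of RXRα at 2165 and 1756 bp, so the peaks of the receptors were not centred on the same bases. The RARβ peak lay at 79 bp and ranked 23063rd of 29467. It overlapped the RARα peaks but neither RXRα peak. In a region at the 3′ end, 6.69 kb from the start, RXRα had 78.3 and 94.4, RARα 40.7 and 66.0, and RARβ 52.4 under RA only. The highest RARβ peaks of all 8 windows lay here at 21.3 kb, with 99.5 and 99.8, which ranked 78th and 67th. That region, called in all 6 lists, was nearest to the start of Rab11b, and RXRα had 4.55 and 44.3 there. RefSeq's promoter table gave no entry for Angptl4 or Vnn1.

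Vnn1 (chromosome 10, 23894688 to 23905344, plus strand) had no region called in all 6 lists. In the full lists its RAR peaks near the start were called mainly under RA. With RARβ lists of equal length it had a RARβ peak within 10 kb under control and none under RA. With RARα lists of equal length its window had 3 RARα peaks under control and 2 under RA. At the start RXRα had 39.2 and 31.0, RARα 12.8 and RARβ 21.2, the RARs under RA only. The strongest site lay at -9.64 kb, where RXRα had 97.6 and 95.2. RARβ had 26.2 and 47.3 at that site, and RARα was called under RA only, with 28.5. At 29.5 kb, nearest to the start of Taar1, RXRα had 91.5 and 88.0 and both RARs were called under RA only, RARα with 16.9 and RARβ with 71.3. The 3 RARα control peaks of the window lay at -13.8 kb and, as a pair, in 1 region nearest to the start of the related gene Vnn3.

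Fabp1 (chromosome 6, 71199879 to 71205034, plus strand) had no RARβ peak in its window under control and 7 under RA. Each of the 7 lay in a region that RXRα held under both diets. They lay at -37.4, -32.8, -26.7, -14.5, -9.69, -0.015 and 36.4 kb, with RARβ percentiles of 40.7, 29.9, 94.1, 73.7, 52.3, 34.6 and 95.1. Those at -37.4, -32.8 and -0.015 kb ranked 17485th, 20647th and 19277th, past the 14968 peaks of the RARβ control list. In RARβ lists of equal length they are therefore absent. RXRα was strong at 3 of these sites and had 99.0 and 98.6 at -26.7 kb, 98.4 and 95.1 at -14.5 kb, and 98.3 and 98.7 at 36.4 kb. At the start RXRα had 92.7 and 87.3. It was weaker or changed more at the remaining sites, with 3.45 and 64.9 at -37.4 kb, 64.6 and 33.6 at -32.8 kb, and 46.8 and 83.5 at -9.69 kb. RARα was called under RA only at -14.5, -9.69 and -0.015 kb, with 67.6, 51.9 and 63.2. It was called under both diets at -37.4, -32.8, -26.7 and 36.4 kb, with 16.7 and 41.6, 94.6 and 97.3, 29.1 and 68.1, and 13.1 and 63.2. In the broad region at 36.4 kb the RARα peaks with 13.1 and 63.2 do not overlap. The RARα control peak that overlaps the one with 63.2 had 5.23. The regions at -37.4 and -32.8 kb are nearest to the start of Thnsl2 and that at 36.4 kb to Smyd1. RXRα also had 5 regions under control only, of which the one at -6.46 kb had 82.5 and the others at most 25.8.

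The promoter of Fabp1 (chr6:71199629-71199878, GRCm38, plus strand) is shown because RXRα had a peak over it under both diets and, in the full lists, the RARs under RA only. It holds a direct repeat of AGGTCA on the opposite strand with a spacer of 1 base and 1 mismatch, 67 to 55 bases before the start, which reads TGACCTATGGCCT in the printed direction. It also holds a single half-site 9 to 4 bases before the start, and both are in capitals. A search that allowed 1 mismatch over both half-sites, chosen after the exact search had found none, found a repeat with a spacer of 1 base in 0.484% of all promoters. With spacers of 1 to 5 bases it found one in 1.35% of them, and among the 7 promoters of 6 of these genes in that of Fabp1 alone. Exact repeats of the 4 half-sites with spacers of 0 to 5 bases were in 0.706% of promoters and in none of the 7.
Fabp1: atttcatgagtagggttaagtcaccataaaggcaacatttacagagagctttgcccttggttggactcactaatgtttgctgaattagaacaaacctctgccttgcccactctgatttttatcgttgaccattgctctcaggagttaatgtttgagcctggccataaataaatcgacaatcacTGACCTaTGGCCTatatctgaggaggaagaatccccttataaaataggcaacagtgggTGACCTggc

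**Figure D3:**
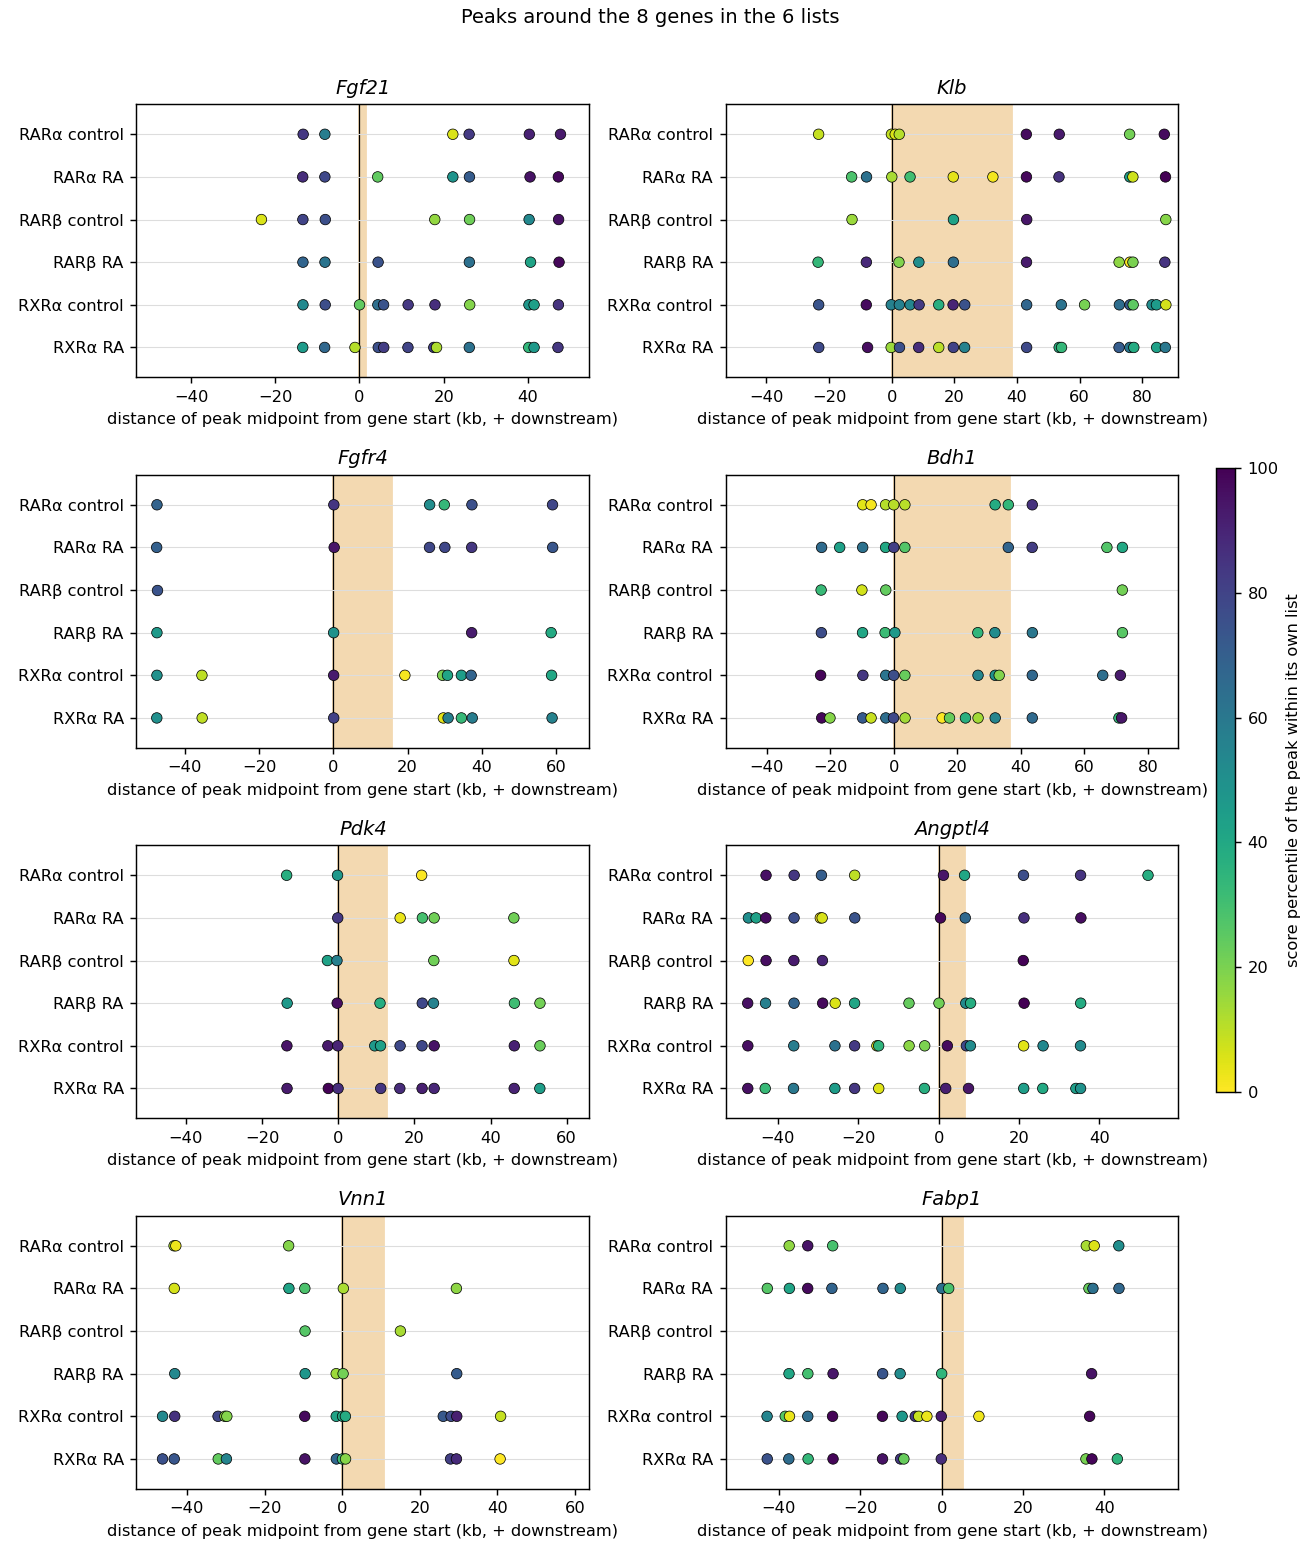
Distance of each peak midpoint from the gene start in kb (x axis, positive downstream) in the 6 lists (rows) for the 8 genes; points are peaks, coloured by score percentile within their own list, the tan band is the gene span and the black line the start. The RARβ control row of Fabp1 is empty, and the 5 columns of points shared by all rows at Fgf21 lie outside the gene.

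Merging overlapping peaks across the 6 lists gave 119 regions in the 8 windows. A region was called in a list when it held a peak of that list, so peaks of different lists in it need not overlap. The percentile given for a region is that of its best peak in the list. Of these, 13 were called in all 6 lists (10.9%) and 28 in 1 list (23.5%), against 9.76% and 29.4% of the 87787 regions of the genome. RXRα without a RAR was seen in 36 regions (30.3%, against 36.3%) and a RAR without RXRα in 15 (12.6%, against 20.1%). The nearest gene start was that of 1 of the 8 genes for 62 regions and that of another gene for 57. Of the 13 regions called in all 6 lists, 3 were nearest to 1 of the 8 genes. They lay at the start of Pdk4 and at -9.85 and -2.73 kb of Bdh1.

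A peak counted as shared between diets when the overlap covered 25% or more of both peaks. For RXRα this held for 82 of 99 peaks under control (82.8%, Wilson 95% interval 74.2 to 89.0), against 78.7% of the whole list. For RARα, 40 of 49 control peaks were shared (81.6%, 68.6 to 90.0), against 84.2%, and for RARβ 22 of 27 (81.5%, 63.3 to 91.8), against 75.8%. In the other direction, 22 of 59 RARβ peaks under RA were shared with control (37.3%, 26.1 to 50.05), against 38.2%. For RARα it was 41 of 66 (62.1%, 50.1 to 72.9), against 68.4%, and for RXRα 84 of 95 (88.4%, 80.4 to 93.4), against 80.3%. Each share of the whole list but that of the RXRα peaks under RA lay inside the interval of the 8 genes, and the intervals cover counting error only. As regions, RARβ was called under RA only at 36 of its 63 regions (57.1%, against 54.3%), under both diets at 22 (34.9%, against 35.8%) and under control only at 5 (7.94%, against 9.89%). RARα was called under RA only at 24 of 71 (33.8%, against 27.3%), under both at 40 (56.3%, against 61.7%) and under control only at 7 (9.86%, against 10.9%). RXRα was called under RA only at 10 of 104 (9.62%, against 15.8%), under both at 79 (76.0%, against 66.6%) and under control only at 15 (14.4%, against 17.6%).

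RXRα held 79 of the regions under both diets. RARβ was called under RA only at 35 of them (44.3%, against 30.9% of such regions in the genome), under both diets at 20 (25.3%, against 21.7%) and under control only at 2 (2.53%, against 2.64%). At 22 it was not called (27.8%, against 44.7%). RARα was called under RA only at 17 (21.5%, against 15.1%) and under both diets at 32 (40.5%, against 37.3%). It was called under control only at 4 (5.06%, against 4.98%) and not called at 26 (32.9%, against 42.7%). Both RARs appeared together under RA only at 8 of the 79 (10.1%, against 7.25%). Fabp1 gave 7 of the 35 RARβ regions from its 8 RXRα regions, Klb 7 of 15, Angptl4 5 of 11, and Fgf21 1 of 9. Of the 38 regions nearest to 1 of the 8 genes, RARβ was called under RA only at 20 (52.6%), and of the 41 nearest to another gene at 15 (36.6%). When the longer list of each RAR was cut to the length of the shorter, an alternative chosen after seeing the data, RARβ was called under RA only at 14 of 80 such regions (17.5%, against 12.9%). It was then called under control only at 9 (11.2%, against 7.49%), and RARα under RA only at 12 (15.0%, against 8.96%).

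**Figure D4:**
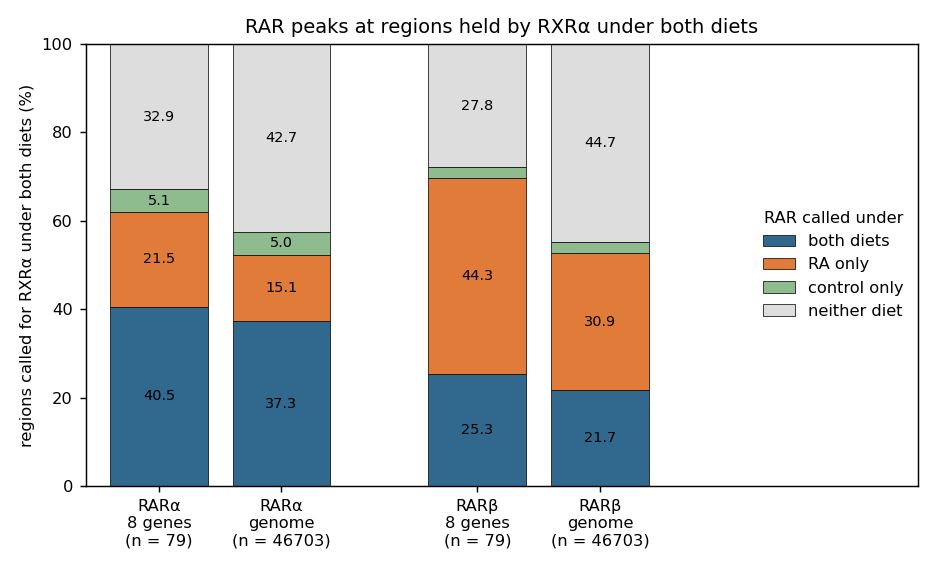
Share of the regions called for RXRα under both diets (y axis, %) at which RARα or RARβ was called under both diets, RA only, control only or neither, for the windows of the 8 genes (n = 79) and the genome. RA only is 44.3% against 30.9% for RARβ and 21.5% against 15.1% for RARα; with 1 library per list these shares have no replicate check.

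The lists were also read at 25 other genes of ketone metabolism, FGF signalling, fasting regulation and the families of the 8 genes. Of the 25, within 10 kb of the start, RXRα had a peak at 23 under control and 22 under RA, RARα at 22 and 23, and RARβ at 12 and 19. The shares of all genes were 61.3% and 61.7% for RXRα, 61.9% and 63.3% for RARα, and 44.1% and 54.7% for RARβ. With the lists of each RAR at equal length, RARβ was called at 12 and 13 of the 25 and RARα at 22 and 20. RARα peaks in the 50 kb windows were then more numerous under RA at 3 of the 25, fewer at 11 and equal at 11. For RARβ they were more numerous at 10, fewer at 8 and equal at 7. The shares of all genes with more and fewer were 25.2% and 29.2% for RARα and 20.8% and 29.4% for RARβ. Acat1, a thiolase of ketone metabolism, had no RARβ peak under control and 3 under RA. Oxct1, which uses ketone bodies outside the liver, had no RARβ peak in either list. Of the 6 fasting regulators, Ppara, Creb3l3, Sirt1, Sirt3 and Foxo1 had a peak in all 6 lists and Ppargc1a had none. Of the FGF genes, Fgfr2, Kl and Fgf15 had no RARβ peak. Among family members, Pdk1 and Pdk2 had a peak in all 6 lists and Pdk3 in none, and Angptl8 had one in all 6.

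The genes most like Fgf21 were sought among 19517 genes of other chromosomes, by the mean absolute difference of the best score percentile within 10 kb of the start over the 6 lists. Gm14393, Rd3 and Tbc1d22a were closest, with differences of 4.04, 4.09 and 4.17 percentile points.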

How the data were processed

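Per the labels and the study's methods, the authors aligned reads to mm10 with Bowtie, called peaks with MACS and deposited 1 list per library. The deposited score, from the caller's p-value, ran from 50 to 3205 and is not normalized between libraries. It was therefore used as a rank or percentile within its list. Read totals are not in the lists, so depth is unknown and list length may vary with it. The input was not used here.

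Peak ends on chromosome Y reached 90842021, past its length of 15902555 in NCBIM37, so gene spans and promoters came from RefSeq tables of GRCm38.p6. Exons and introns were not analysed here. Strand came from the promoter table for 17491 genes and by symbol from GENCODE M1 for 4041. Peaks were assigned by midpoint (Python 3.11.15, numpy 2.4.6, pandas 2.3.3), and the assignment was tested on simulated data. Shares carry Wilson intervals (scipy 1.17.1). No test was run, since each receptor and diet had 1 library. The members and lists were chosen with earlier results of these data known. The named genes are the 8, genes among 25 related ones, the cell markers and the 3 genes most like Fgf21. Some of the 25 are not reported here by name. Genes nearest to a region were named after their values were seen. Alternatives were a window of 10 kb, any base in the window, a score of at least 100, lists of equal length, 1 kb from the start and an overlap of 1 base.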

Additional observations from a re-analysis of the deposited data

Results flagged for a closer look

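The number of peaks in the windows of the 8 genes moved in opposite directions between diets for the RARs and RXRα. From control to RA it changed by 17 peaks for RARα, by 32 for RARβ and by -4 for RXRα. The whole lists changed in the same directions, from 35521 to 44296 peaks for RARα, 14968 to 29467 for RARβ and 61128 to 59624 for RXRα. With 1 library per list, the difference between receptors was not tested. Its relation to list length is given by the lists of equal length. There RARβ had 27 and 29 peaks, RARα 20 and 28 and RXRα 33 and 36, larger under RA for each receptor.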

How the results depend on the processing

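Of 86 alternative values of 41 results, 39 stayed near the main value and 47 moved. Counts were held near within 1.5 times the main count and shares inside the interval of the main share, and a median percentile counted as moved at any change. Counting any base in the window and an overlap of 1 base moved none of their values. No paired analysis was possible because each receptor and diet had 1 library, and for the same reason no replicate could be left out.

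In windows of 10 kb, there were 18 and 25 peaks for RARα under control and RA, 8 and 25 for RARβ and 45 and 39 for RXRα. When scores below 100 were left out, they were 23 and 43 for RARα and 9 and 29 for RARβ. With all lists at 14968 peaks they were 20 and 28 for RARα, 29 for RARβ under RA, and 33 and 36 for RXRα. Genes with a peak within 10 kb were then 3 and 5 for RARα and 4 and 4 for RARβ, so the larger number under RA was not seen for RARβ. Without scores below 100, RARβ had 1 and 4 such genes, and within 1 kb it had 1 under control.

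With lists of equal length, 95.0% of RARα control peaks, 55.6% of RARβ control peaks, and of the peaks under RA 51.7% for RARβ and 77.8% for RXRα were shared between diets. RARα regions were then 1 under control only, 19 under both and 9 under RA only. RARβ regions were 12 under control only and 14 under RA only, and RXRα regions 5 under control only and 28 under both. Without scores below 100, RARα regions were 1 under control only and 22 under both, and RARβ regions 1, 8 and 21 under control only, both and RA only.

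When each RAR's longer list was cut to its shorter, chosen after seeing the data, RARβ at RXRα regions was called under control only at 9, both at 13, RA only at 14 and neither at 44. The median percentile of the best peak per gene moved from 89.3 to 52.4 and 95.9 to 79.8 for RARα when peaks within 10 kb of the start were used. It moved from 74.6 to 41.6 and 93.9 to 50.7 for RARβ, and from 97.1 to 93.0 and 96.1 to 90.9 for RXRα. The promoter search found 0 of 7 promoters with exact repeats and 1 with 1 mismatch. Depth is unknown, so a site without a peak is not shown to be unbound.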
